A study of Arabidopsis thaliana with 14 samples.

Results

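The islands described here are short stretches of dimethylated histone H3 lysine 9 (H3K9me2) that lie outside the densely marked heterochromatin of Arabidopsis thaliana. They were taken from the authors' H3K9me2 peak list of transgenic wild type (TWT) seedlings. A peak counted as an island where it lay on chromosomes 1 to 5 and shared no base with an H3K27me3 peak of the same plants; 1 island abutted such a peak. Its midpoint also had to fall in a 1 Mb bin of which H3K9me2 peaks covered under 14%. By this rule 1106 of the 8051 H3K9me2 peaks were islands. A further 453 peaks lay in the same bins and overlapped H3K27me3, and 6485 lay in bins at or over the limit. The other 7 peaks were on organelle DNA. The islands were thus selected on measured position, bin cover and H3K27me3 overlap in TWT, which are given as description.

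The study set a fen1 mutant against TWT, both of the C24 ecotype, and used untreated whole seedlings at 10 days of age. FEN1 encodes flap endonuclease 1, an enzyme of DNA replication and repair. RNA came from 2 fen1 libraries and 2 TWT libraries, and each histone mark from 1 TWT library with a deposited peak list; the fen1 ChIP libraries were not analysed here. The labels do not say which allele fen1 is, nor what transgene the TWT plants carry, nor whether libraries came from separate cultures. Whole seedlings mix many cell types, so fewer cells of a type and less RNA per cell cannot be told apart. Read depth per library is unknown from these files. The RNA table holds 1 value per genotype, so no spread between replicates stands beside any level. Each mark rests on 1 library, so classes of peaks are described side by side with no test between them.

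H3K9me2 marks silent chromatin in plants. The methyltransferase KYP and its relatives place it, and the DNA methyltransferase CMT3 binds it and methylates DNA, which in turn draws KYP, so that the histone and DNA marks sustain each other. Most of it covers transposons and repeats around the centromeres, and small patches lie among the genes of the arms. H3K4me3 marks the start of active genes, and H3K27me3 is the mark of Polycomb silencing.

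Islands were spread over nearly all of the genome outside the dense bins, but unevenly. Of 121 bins, 96 were under the limit, and 4 of these held no island. The number per bin ran from 0 to 73, with a median of 6.5. Chromosome 5 held 319 islands, chromosome 1 held 290, chromosome 3 held 195, chromosome 2 held 160 and chromosome 4 held 142. Per bin under the limit this came to between 10.1 on chromosome 4 and 13.9 on chromosome 5. The rule sets a limit on cover and not on place, and the name "arm" holds only in part. The 10 bins next to a bin at or over the limit held 384 islands, or 34.7% of them, at 38.4 per bin. The 86 bins farther out held 722 islands, at 8.40 per bin. In the 31 bins with under 1% cover there were 83 islands, at 2.68 per bin.

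**Figure D1:**
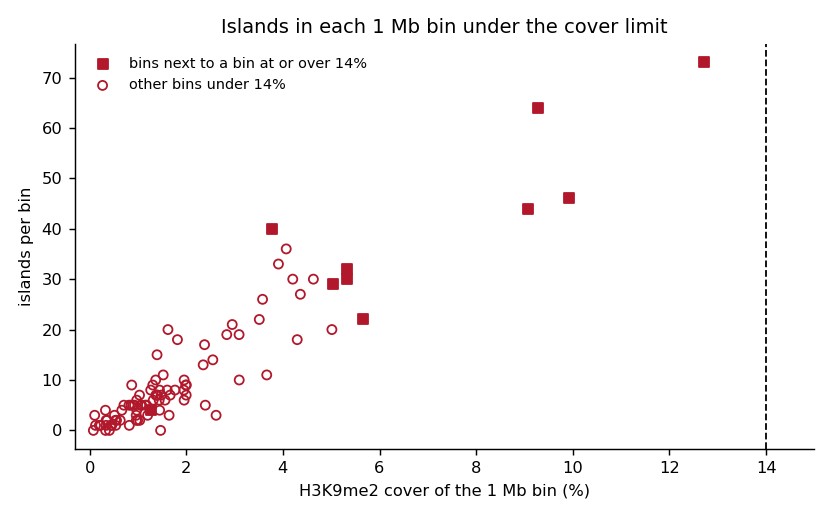
Number of islands in each 1 Mb bin under the cover limit (vertical axis) against the percent of the bin that H3K9me2 peaks cover (horizontal axis). Each point is 1 bin, filled squares touch a bin at or over 14% and the dashed line is the limit; the bin with the most islands holds 73 at 12.7% cover.

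The bins nearest to the limit can be set beside each other. Just inside were chromosome 5 from 14000001 (12.7% cover, 73 islands), chromosome 2 from 1 (9.93%, 46 islands), chromosome 5 from 9000001 (9.28%, 64 islands) and chromosome 3 from 16000001 (9.08%, 44 islands). Positions are those of the TAIR10 build named in the submitters' processing notes. Just outside were chromosome 2 from 1000001 (14.8% cover), chromosome 1 from 12000001 (15.0%) and chromosome 4 from 1000001 (18.4%). The median H3K9me2 peak in the first bin inside was 918 bp wide with a score of 257. In the first bin outside it was 1027 bp wide with a score of 218. No island had a bin cover between 12.7% and 14%.

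Islands were short, and most of their total length lay in a minority of longer ones. The median width was 754 bp, with 10% under 329 bp and 10% over 2186 bp. Together they covered 1237 kb. The 318 islands of up to 500 bp made up 28.8% of the number and 9.35% of the length. The 25 islands over 5 kb made up 2.26% of the number and 13.3% of the length. Peaks of the dense bins had a median of 705 bp, so the typical peak was of similar width, but their upper tail reached farther, with 10% over 3407 bp and a maximum of 22906 bp against 10219 bp for islands. Peaks of the same bins that overlapped H3K27me3 were wider, with a median of 1391 bp. The rule parts these peaks from islands by contact with H3K27me3, for which a wider peak has more room. How much of the difference in width this gives was not tested.

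The score of a peak is the authors' own value from their peak caller, with a floor near 50 in this list, and it is used here only to rank peaks within it. The median island score was 163, against 124 for the peaks that overlapped H3K27me3 and 256 for those of the dense bins. Scores under 100 were found in 354 islands (32.0%) and scores over 2000 in 31 (2.80%). Score followed width across islands, with a Spearman rho of 0.66 over 1106 islands that share 1 library. The median score was 87.1 for islands of up to 500 bp, 328 for those of 1 to 2 kb and 2691 for those over 5 kb. Among islands 11 had the same score of 3100, as did 146 peaks of the dense bins, and 3 islands scored above it. So many ties may come from a set value of the caller. Neither the order within the ties nor their order against higher scores is therefore resolved. By chromosome, median island widths ran from 730 bp on chromosome 3 to 768 bp on chromosome 1, and median scores from 137 on chromosome 4 to 188 on chromosome 2.

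**Figure D2:**
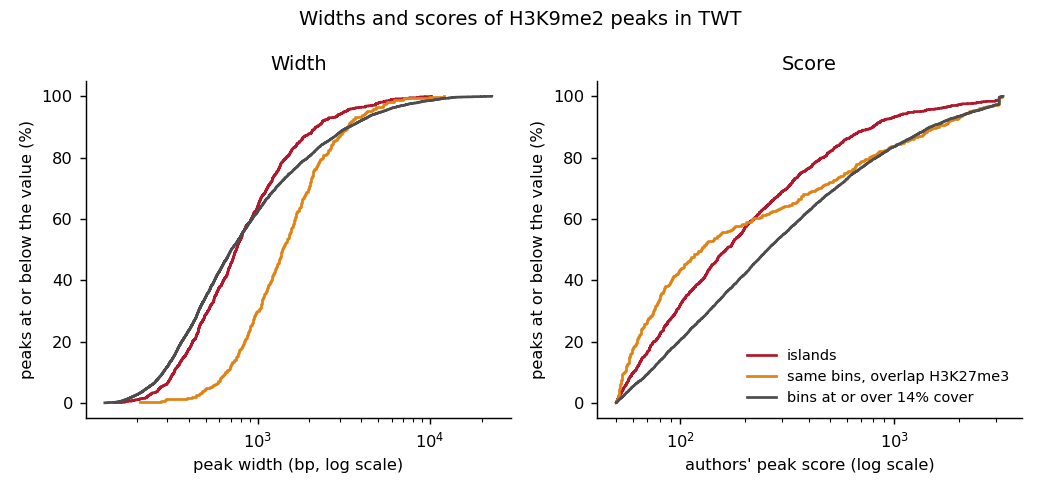
Share of peaks at or below each width (left, bp, log scale) and each of the authors' scores (right, log scale), for islands, for peaks of the same bins that overlap H3K27me3 and for peaks of bins at or over the limit. Medians of islands lie at 754 bp and a score of 163, and the curve of dense bins lies to the right of the islands at high widths and along the score axis.

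A few islands stood at the top of the list by printed score or width, though islands tied at 3100 may not rank below those with higher scores. The highest score, 3209, belonged to an island of 4848 bp on chromosome 5 (17090818 to 17095665, TAIR10), and the next, 3203, to one of 3694 bp on chromosome 5 (9640993 to 9644686). An island of 5818 bp on chromosome 1 (9367830 to 9373647) scored 3155 and ended 23 bp from an H3K4me3 peak. The widest, 10219 bp on chromosome 3 (2808423 to 2818641), scored 3100 and overlapped H3K4me3 at its edge by 25 bp. Width and score parted in some cases. An island of 9346 bp on chromosome 1 (17255392 to 17264737) scored 293, the lowest of the islands over 5 kb, and one of 8805 bp on the same chromosome (20311792 to 20320596) scored 2691.

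Many islands lay close to another H3K9me2 peak, and a minority lay far from any. The distance to the nearest other H3K9me2 peak was small for most, with a median of 362 bp, and 346 islands (31.3%) had a neighbour within 100 bp. The median was 6863 bp for the peaks that overlapped H3K27me3 and 100 bp in the dense bins. At the other end, 269 islands (24.3%) lay over 10 kb from any other H3K9me2 peak and 47 (4.25%) over 100 kb, where 1.08% of the peaks in dense bins lay over 10 kb away and none over 100 kb. The nearest peak was another island for 875 of the 1106. Spacing followed the cover of the bin, which the rule used: the median distance was 17501 bp in bins under 1% cover and 209 bp in bins of 5 to 14%.

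Joined across gaps of up to 1 kb, the islands formed 694 runs, of which 477 were single islands and 217 held several. The runs of several held 629 islands, or 56.9%. Such a run spanned a median of 2783 bp, and islands covered a median of 89.9% of its span, so the pieces were close to continuous. Single islands had a median width of 889 bp and a median score of 131, whereas the islands within runs of several had medians of 685 bp and 196. Between neighbouring runs the median gap was 56100 bp. Runs and gaps count islands alone, so other H3K9me2 peaks and whole dense bins can lie within a gap. A single island can likewise have another kind of H3K9me2 peak within 1 kb. The nearest H3K9me2 peak was one that overlapped H3K27me3 for 230 islands, and one of a dense bin for 1.

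The run with the most islands held 11 of them over 12914 bp on chromosome 2 (7006874 to 7019787), of which 11598 bp were covered, and lay 16712 bp from H3K4me3. Runs of 9 islands were found on chromosome 4 (7695019 to 7705040) and at 2 places on chromosome 5 (15490850 to 15498058 and 7032509 to 7038443). The densest 100 kb began at 17363327 on chromosome 3 and held 21 islands, followed by stretches from 15715 on chromosome 2 with 20 and from 9840728 on chromosome 5 with 17. By contrast, the most isolated island (1224 bp, score 239, chromosome 2, 18497366 to 18498589) lay 721382 bp from the nearest other H3K9me2 peak, and its end overlapped H3K4me3 by 22 bp. The next, 1831 bp on chromosome 1 (26343253 to 26345083), scored 784 at 645328 bp and overlapped H3K4me3 by 131 bp. An island of 1045 bp on chromosome 4 (18583197 to 18584241) was 476960 bp from the next peak and 2612 bp from H3K4me3.

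**Figure D3:**
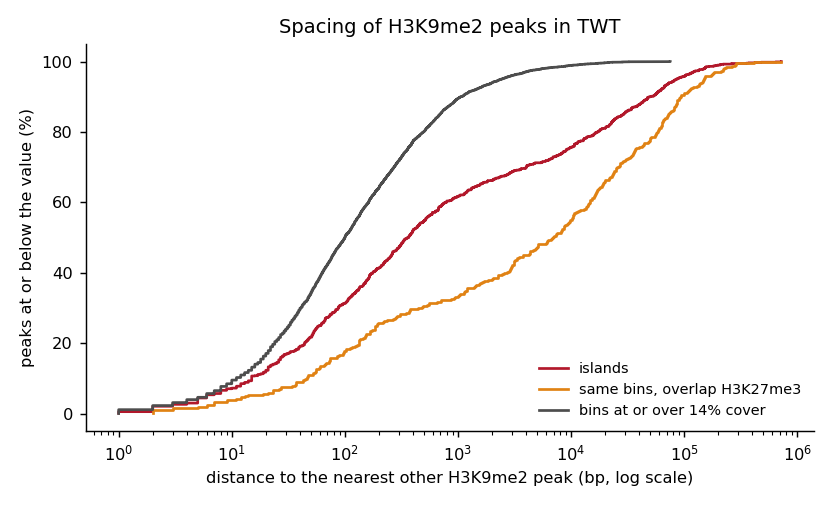
Share of H3K9me2 peaks at or below each distance to the nearest other H3K9me2 peak (horizontal axis, bp, log scale), for islands, for peaks of the same bins that overlap H3K27me3 and for peaks of bins at or over the limit. The medians are 362, 6863 and 100 bp, and the curve of the islands has a long right end, with 24.3% beyond 10 kb.

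Islands lay nearer to H3K4me3 peaks than the peaks of the dense bins did, and seldom overlapped them. Their distance was similar to that of the other H3K9me2 peaks of the same bins. An H3K4me3 peak overlapped 30 of 1106 islands by at least 1 bp (2.71%, exact Clopper-Pearson 95% interval 1.84 to 3.85%, which covers counting error alone). The share was 0.883% for peaks that overlapped H3K27me3 and 0.339% in the dense bins. H3K4me3 peaks covered on average 22.8% of a bin under the limit and 4.58% of a dense bin. Of the total length of the islands, 0.758% lay within H3K4me3. The median distance from an island to the nearest H3K4me3 peak was 3758 bp, against 3382 bp for peaks that overlapped H3K27me3 and 33286 bp in the dense bins. Within 1 kb of H3K4me3 were 211 islands (19.1%), within 5 kb 675 (61.0%) and within 10 kb 940 (85.0%). The largest distance was 57782 bp.

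The overlaps were mostly at the edges. In the 30 islands a median of 131 bp, or 9.04% of the island, lay within H3K4me3. In 8 islands it was at least 50%, and 7 lay wholly inside. These 7 scored between 52.1 and 158. The longest, of 1752 bp on chromosome 1 (2414298 to 2416049), scored 110, and another, of 823 bp on chromosome 5 (4796738 to 4797560), scored 84.9. Both marks come from whole seedlings, so an overlap does not show that they lie on the same chromosome copies. The 30 islands had a median width of 1211 bp and a median score of 114, against 743 bp and 165 for the 1076 without overlap.

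Stretches between H3K4me3 peaks held islands more often the longer they were. Such stretches can hold gene bodies and genes without an H3K4me3 peak, so they are not the spaces between genes. Between 2 neighbouring H3K4me3 peaks, 526 of 14647 stretches in the bins under the limit held at least 1 whole island (3.59%). Stretches with an island had a median length of 12249 bp, against 3090 bp for those without. A whole island lay in 0.123% of the 4860 stretches of up to 2 kb, in 4.75% of those of 5 to 10 kb and in 35.3% of the 371 stretches over 20 kb. A longer stretch has more room for an island, and how much of this pattern length alone gives was not tested. Of the 526 stretches, 321 held 1 island and the fullest held 15. For the 1053 islands with no overlap and an H3K4me3 peak on either side, the median distance was 3790 bp to the nearer and 11096 bp to the farther one. In 200 of them both H3K4me3 neighbours were within 5 kb. The distance to H3K4me3 grew with the cover of the bin, with a median of 1360 bp in bins under 1% cover and 4899 bp in bins of 5 to 14%.

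**Figure D4:**
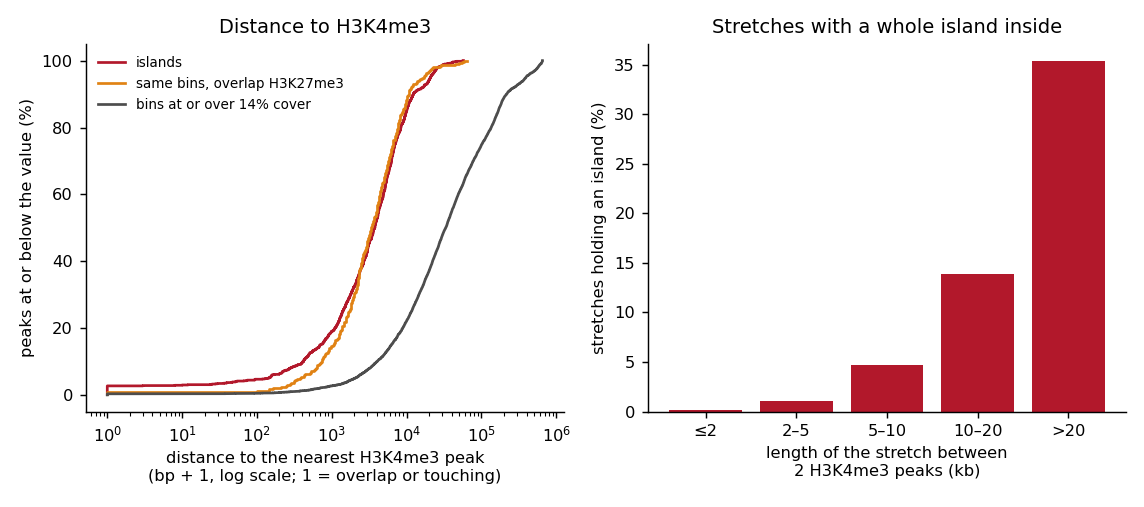
Left, share of H3K9me2 peaks at or below each distance to the nearest H3K4me3 peak (bp + 1, log scale) for the 3 classes of peaks; right, percent of stretches between neighbouring H3K4me3 peaks that hold a whole island, by stretch length in kb. Medians on the left are 3758, 3382 and 33286 bp, and on the right the share is 35.3% for stretches over 20 kb and 0.123% for those of up to 2 kb.

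Genes whose RNA differed between fen1 and TWT were then placed beside the islands, since the series asks what FEN1 does for silencing. Of the 1114 genes the authors called, 31 lay within 2 kb of an island, 17 of them higher in fen1 and 14 lower. Over all 20132 genes that the authors' p-values and q-values imply were tested, 5.53% were called, 3.4% higher and 2.14% lower. How many tested genes lie near islands is not known, as uncalled genes have no position in the table, so no share of genes near islands that changed can be given. Conversely, 37 of the 1106 islands (3.35%) lay within 2 kb of a called gene. These had a median score of 109 and lay a median of 1294 bp from H3K4me3, where the other 1069 had 166 and 3836 bp. The 37 were chosen for lying near genes, which bears on their distance to H3K4me3. Islands near uncalled genes could not be set beside them, so the contrast is not tied to the change in fen1.

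Called genes near islands moved in both directions. Higher genes were 54.8% of the 31 (exact Clopper-Pearson 95% interval 36.0 to 72.7%), against 63.1% of the 1008 other called genes in the same bins. By the authors' deposited table, the 31 had a median log2 fold change of 0.47 and the 1008 one of 0.64. A change of at least 2-fold was found in 10 of the 31 and in 398 of the 1008. The 31 genes had, by the authors' deposited table, a median of 9.75 FPKM (fragments scaled to transcript length and library size) in fen1 and 12.4 FPKM in TWT. An H3K4me3 peak overlapped 16 of the 31 (51.6%) and 54.5% of the 1008. H3K27me3 overlapped 7 of the 31 (22.6%) and 37.0% of the 1008; the rule keeps islands apart from H3K27me3, which touches this count. Near the 453 peaks that overlap H3K27me3 there were 41 called genes, 26 higher and 15 lower. Near the peaks of the dense bins there were 27, 9 higher and 18 lower (33.3% higher, exact Clopper-Pearson 95% interval 16.5 to 54.0%). Higher genes were 61.4% of all 1114 called genes. How many tested genes lie near these peaks is not known, and the difference in direction was not tested.

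**Figure D5:**
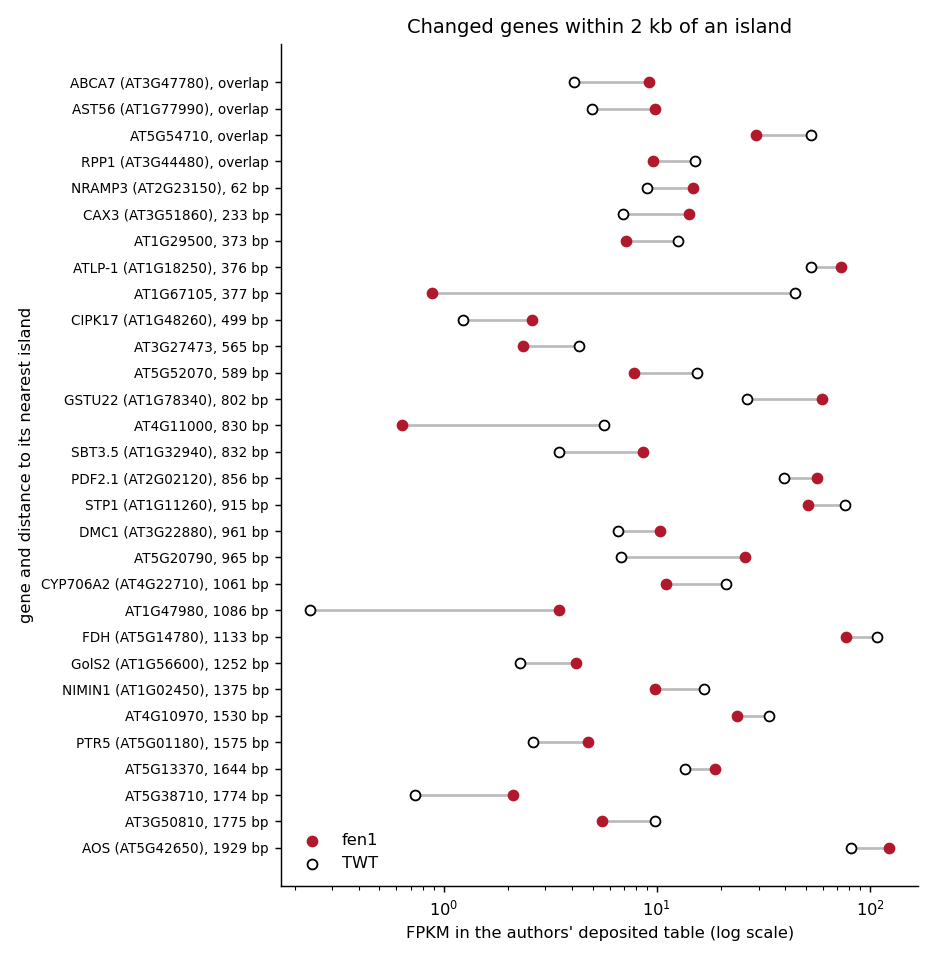
Level of each of 30 called genes within 2 kb of an island (horizontal axis, FPKM in the authors' deposited table, log scale), in fen1 (filled) and TWT (open), ordered from top to bottom by distance to the nearest island. Each point is the authors' value per genotype with no replicate spread, and the widest separation is that of AT1G67105, at 0.881 FPKM in fen1 and 44.2 FPKM in TWT.

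An island overlapped the body of 4 called genes, 2 higher and 2 lower, by 1.57- to 2.23-fold. ABCA7 (AT3G47780, chromosome 3, 17624479 to 17629013), a gene of the ABC transporter family, had, by the authors' deposited table, 9.14 FPKM in fen1 against 4.10 FPKM in TWT (log2 fold change 1.16, q = 0.00173). Its island of 739 bp ran across the 3′ end. AST56 (AT1G77990, chromosome 1, 29317899 to 29323352), a sulfate transporter gene, had, by the authors' deposited table, 9.75 FPKM in fen1 against 4.95 FPKM in TWT (log2 0.98, q = 0.00173). Here the island of 564 bp lay wholly inside the gene, 3214 bp from its start. Neither gene carried an H3K4me3 peak or an H3K27me3 peak.

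The islands of the 2 lower genes lay over the start of one and along the body of the other. AT5G54710 (chromosome 5, 22227574 to 22230500), which encodes an ankyrin repeat protein, had, by the authors' deposited table, 29.2 FPKM in fen1 against 52.5 FPKM in TWT (log2 −0.85, q = 0.00173). An island of 1798 bp covered its start and 1510 bp of its body. RPP1 (AT3G44480, chromosome 3, 16090564 to 16096359), an immune receptor gene that confers resistance to downy mildew, had, by the authors' deposited table, 9.64 FPKM in fen1 against 15.1 FPKM in TWT (log2 −0.65, q = 0.00173). It was the 1 called gene here with several islands on its body, 3 of them, covering 2591 bp, and an H3K4me3 peak covered 1977 bp of it. RPP1 belongs to a family of similar receptor genes that differ between ecotypes, and the sources used here do not say how C24 reads were divided among such copies, so its level is uncertain.

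An island lay on the 5′ side of 11 called genes, 6 higher and 5 lower. The largest change among the 31 genes was the fall of AT1G67105 (chromosome 1, 25057479 to 25058264), an RNA gene without a known protein. It had, by the authors' deposited table, 0.881 FPKM in fen1 against 44.2 FPKM in TWT (log2 −5.65, q = 0.00173). Its island was small, 315 bp with a score of 56.7, near the floor of the list, and ended 377 bp before the gene. The sources used here do not say whether reads were counted by strand, and a transcript on the other strand cannot be told apart. AT5G20790, a gene of unknown function, had, by the authors' deposited table, 26.0 FPKM in fen1 against 6.82 FPKM in TWT (log2 1.93, q = 0.00173). It sat between an island 965 bp from its 5′ end and a run of 9 islands whose edge was 1467 bp from its 3′ end.

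A pair of lower genes faced away from each other across the same islands. AT4G10970 (chromosome 4, 6719207 to 6722220, minus strand) and AT4G11000 (6731020 to 6732464, plus strand) lay 8799 bp apart with their 5′ ends toward the gap. Islands covered 6387 bp of that gap in 2 pieces, 52 bp apart. The larger piece was 5159 bp wide with a score of 2541 and the smaller 1228 bp with a score of 464. AT4G11000, another ankyrin repeat gene, had, by the authors' deposited table, 0.637 FPKM in fen1 against 5.67 FPKM in TWT (log2 −3.15, q = 0.00173). AT4G10970, of unknown function, had, by the authors' deposited table, 23.8 FPKM in fen1 against 33.6 FPKM in TWT (log2 −0.50, q = 0.0385). Both carried an H3K4me3 peak, and it was the 1 such pair of called genes among the 31.

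The other 5′ islands stood beside genes that changed by at most 2.24-fold. GSTU22, a glutathione transferase gene, had, by the authors' deposited table, 59.2 FPKM in fen1 against 26.5 FPKM in TWT (log2 1.16), with an island 802 bp away. DMC1, a meiotic recombinase gene, had, by the authors' deposited table, 10.4 FPKM in fen1 against 6.54 FPKM in TWT (log2 0.67), with an island of 304 bp 961 bp away. PDF2.1, a defensin gene, had, by the authors' deposited table, 56.5 FPKM in fen1 against 39.5 FPKM in TWT (log2 0.52). Its island was 7235 bp wide with a score of 2441, and lay 856 bp away. PTR5, a dipeptide transporter gene, and the GH3 family gene AT5G13370 rose by 0.84 and 0.47 on the log2 scale of the authors' deposited table. CYP706A2, a cytochrome P450 gene, and NIMIN1, whose product binds the immune regulator NPR1, had log2 changes of −0.93 and −0.77 by the authors' deposited table.

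On the 3′ side of 16 called genes lay their nearest island, and 9 of these were higher and 7 lower. The nearest of all was an island of 1148 bp that began 62 bp past NRAMP3, a metal transporter gene of the vacuole, with 14.8 FPKM in fen1 against 8.98 FPKM in TWT, by the authors' deposited table (log2 0.72, q = 0.00173). CAX3, a calcium and proton exchanger gene, had, by the authors' deposited table, 14.1 FPKM in fen1 against 6.96 FPKM in TWT (log2 1.02, q = 0.00173). The island 233 bp past CAX3 overlapped H3K4me3. AT1G47980, of unknown function, had, by the authors' deposited table, 3.48 FPKM in fen1 against 0.237 FPKM in TWT (log2 3.87, q = 0.0189), and carried H3K27me3 on its body. The island with the highest printed score, on chromosome 5, lay 1929 bp past AOS, an enzyme gene of jasmonate synthesis. AOS had, by the authors' deposited table, 123 FPKM in fen1 against 81.3 FPKM in TWT (log2 0.60, q = 0.00173).

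The remaining genes with a 3′ island changed by at most 2.88-fold. Higher were the putative proline dehydrogenase gene AT5G38710 (log2 1.53), the protease gene SBT3.5 (log2 1.30), the kinase gene CIPK17 (log2 1.08), the galactinol synthase gene GolS2 (log2 0.87) and the thaumatin-like gene ATLP-1 (log2 0.46), by the authors' deposited table. Lower were the Agenet domain gene AT5G52070 (log2 −0.98), the C1 domain gene AT3G27473 (log2 −0.88), AT3G50810 (log2 −0.82) and the auxin-responsive SAUR gene AT1G29500 (log2 −0.80), by the authors' deposited table. The hexose transporter gene STP1 (log2 −0.58) and the formate dehydrogenase gene FDH (log2 −0.49) were also lower by the authors' deposited table. A peroxidase gene, AT1G44970, is the last of the 31 and falls outside the naming rule, and was added once its values were seen; it lay 1976 bp from its island (log2 −0.62 by the authors' deposited table). SAUR genes lie in arrays of similar copies, as do GSTU genes, so the levels of AT1G29500 and GSTU22 are uncertain.

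The next gene on the island's side was read from gene order in the RefSeq annotation, TAIR10.1, which was used for order and type alone. Whether that next gene lies beyond the island or under it was not checked. Of the 27 genes with no overlap, the next gene on the island's side was annotated as a pseudogene for 10 (37.0%). On the other side of the same genes it was 4 of 27 (14.8%), and among the neighbours of the other called genes in these bins 63 of 2014 (3.13%). AT4G10980 and AT4G10990, the neighbours of AT4G10970 and AT4G11000 on the island's side, were both annotated as pseudogenes. The shares were not tested against each other. The other called genes were all those of these bins and were not matched to the 27. Genes known to place or read the mark were looked up as well. Of 35 genes of H3K9 methylation, DNA methylation, RNA-directed DNA methylation and their known targets, 1 was called higher, none lower, and 34 were not listed. This is 2.86% of the lists, near the 3.4% called higher and below the 5.53% called in either direction over all tested genes. How many of the 35 were tested is not known, so the shares have unlike bases and a gene not listed may be untested. It is no result about these lists. The called gene was CMT3, with 24.6 FPKM in fen1 against 17.9 FPKM in TWT, by the authors' deposited table (log2 0.46, q = 0.0226). SDC, FWA, QQS, BNS and RPP7, genes known to be regulated through DNA methylation or H3K9me2, were not among the listed genes.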

How the data were processed

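TopHat2 2.1.1, Cuffdiff 2.1.1, Bowtie 0.12.9 and SAMtools, and TAIR10 as the genome, are listed without their roles by the submitters' processing notes. Peaks carry MACS names per the file contents; the caller's settings, version and control do not appear in the sources used here. The deposited peak lists give a position and the authors' score for each peak, from 1 TWT library per mark. The deposited RNA table gives 1 FPKM value per genotype (read as FPKM from its Cuffdiff layout), the authors' log2 ratio of fen1 over TWT, and the authors' test score, p-value and q-value. The smallest p-value, 5e-05, is shared by 582 genes, so q has a floor of 0.00173. C24 reads placed on the Columbia genome can be lost where the ecotypes differ, and reads that match several places were handled in a way these sources do not state.

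From these files, peak starts were converted to 1-based positions. Bin cover was computed on merged peaks, with bins from position 1. Distances are the bases between nearest ends, and overlap means at least 1 bp. Interval functions were tested on simulated data. Python 3.11.15, pandas 2.3.3, numpy 2.4.6 and scipy 1.17.1 were used. Genes were named by a rule: those overlapping an island, then those within 2 kb by distance, up to 30. Islands were named by score, width, isolation and density. The islands, gene lists and rules were chosen with earlier results of these data known. Of 1114 listed identifiers, 1113 matched RefSeq. Alternatives were other cover limits, shifted bins, stricter peaks, merged peaks, and other distances and thresholds for genes. Intervals cover counting error only.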

Additional observations from a re-analysis of the deposited data

Results flagged for a closer look

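Peaks outside the comparisons were found on organelle DNA. The H3K9me2 list held 7 peaks there, 6 on the chloroplast and 1 on the mitochondrion. The chloroplast peaks scored between 51.0 and 1054, and the mitochondrial peak 64.3. The median island score was 163, so score alone does not set many islands apart from these peaks. The H3K4me3 list held 36 chloroplast peaks and the H3K27me3 list 38, so such peaks were present in all 3 lists. None of these entered the islands.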

How the results depend on the processing

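Of 42 values recomputed under the alternatives, 25 stayed within the 95% binomial interval of the share or median, or within 1.5 times the count, and 17 moved. The number of islands stayed between 752 and 1400. With a cover limit of 20% the median distance was 273 bp to the nearest other H3K9me2 peak and 4179 bp to H3K4me3. With peak scores of at least 100 the bin cover also changed, so that peaks of dense bins entered, and 873 islands had a median width of 950 bp. With the bins left as they were, a setting chosen after seeing the data, the 752 islands that scored at least 100 also had a median of 950 bp. With peaks within 1 kb merged first, the median width was 1250 bp and the median spacing 16486 bp, because merging removes the short gaps. Where H3K4me3 had to cover at least 50% of an island, 0.723% overlapped. Higher and lower genes near islands numbered 2 and 2 with overlap of the body, 11 and 8 within 1 kb, 44 and 25 within 5 kb, 11 and 9 at q under 0.01, and 8 and 2 at a change of at least 2-fold. No paired analysis was possible because the RNA table holds 1 value per genotype; for the same reason no RNA library could be left out. Depth is unknown, so short islands and low FPKM values are the least certain. The cause of the other shifts was not tested.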
